A study of Mus musculus with 36 samples.

Results

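The membrane skeleton of the red cell was followed through 9 genes, Ank1, Slc4a1, Epb42, Sptb, Epb41, Dmtn, Add1, Add2 and Tmod1, which were named for their place in that structure, with earlier results of these data known. Each gene was represented by its transcript row with the highest total, and all 9 were found among the 16812 genes of the table and passed the filter on low counts. RNA came from the peripheral blood of sickle cell mice of the Townes strain, in which the globins of the mouse are replaced by human globins with the sickle allele, after removal of globin mRNA. The 36 libraries formed 12 groups of 3: MIR29B at 2 mg/kg, MIR29B at 3 mg/kg, the scrambled control at 2 mg/kg and the scrambled control at 3 mg/kg, each at weeks 0, 2 and 4. MIR29B is a cholesterol-modified microRNA given by an implanted osmotic pump, and the study was designed to follow fetal hemoglobin and gene expression under it. Every group carried the sickle genotype, so none of them stands for a healthy red cell. The labels give neither age nor sex, do not say whether week 0 blood was drawn before dosing, and do not say whether libraries came from separate animals or whether the same animals were bled at each week. The p-values below therefore measure the spread between libraries, which may be technical in part.

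The membrane skeleton is a meshwork of spectrin that lies under the lipid bilayer and lets the red cell deform and recover its shape. It is fastened to the bilayer at ankyrin complexes, where ankyrin joins beta spectrin to the anion exchanger, and at junctional complexes, where short actin filaments bind spectrin with the help of Epb41, adducin, dematin and tropomodulin. Inherited defects of these proteins are known causes of hereditary spherocytosis and elliptocytosis in people. Circulating red cells of mammals have no nucleus, so their transcripts are those that remain from the precursors and the reticulocytes.

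The sequence of the microRNA and its possible sites in the members are shown first, since MIR29B was the treatment. In the mature mouse miR-29b below, from RefSeq on GRCm38.p6, the capitals mark the seed, bases 2 to 8. The mouse genome holds copies of it at chr1:195037091-195037113 on the plus strand and chr6:31063025-31063047 on the minus strand.
mmu-miR-29b-3p: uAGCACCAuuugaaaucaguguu
The complement of that seed, TGGTGCT, was searched on the coding strand of the longest annotated 3' UTR (GENCODE, GRCm38) of each member, and TGGTGCTA, the same letters followed by an A, was counted as the longer match. Ank1 held the shorter match once, at base 1201 of a 3' UTR of 2243 bases. Add2 held the longer match once, at base 2775 of 5628, so 2 of the 9 genes had a match. The row used for the levels of Add2 was matched to a transcript of 3143 bases, shorter than that 3' UTR. The 3' UTR searched for Add2 is therefore that of another annotated transcript. The matches are shown with 10 bases on either side and the match in capitals.
Ank1, chr8:23149445-23149471, plus strand: agagccaactTGGTGCTtgaagtgcag
Add2, chr6:86121546-86121573, plus strand: agggttgaacTGGTGCTActgtgtgacc
Such letters are common in long 3' UTRs. Of 3435 genes with a 3' UTR of 75% to 125% of the length of that of Ank1, 19.9% held the shorter match, and of 974 genes with one of like length to that of Add2, 11.1% held the longer match. The other 7 members held neither match in the 3' UTR searched. Over the 20957 genes with an annotated 3' UTR, 2.8% held the longer match and 13.1% the shorter one. A match in a 3' UTR is a description of the letters and shows no regulation.

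Promoters listed by RefSeq on GRCm38.p6, from 250 bases before to 50 bases after a transcript start, were available for 6 members, Epb42, Sptb, Epb41, Add1, Add2 and Tmod1. They were searched on both strands for GATAA, the core of the motif bound by the erythroid factor GATA1, and for CACCC, the core bound by the erythroid factor KLF1. The letters do not overlap each other. GATAA was found in 25.4% of 32851 promoters of the same length and CACCC in 57.5%. The promoters of the pair of called genes for which one is listed, Sptb and Add2, and that of Epb42, whose medians were lower at week 2 than at week 0, are printed 5′ to 3′ on the strand of the gene, with every match to either motif or its complement in capitals.
Sptb, chr12:76710498-76710797, minus strand: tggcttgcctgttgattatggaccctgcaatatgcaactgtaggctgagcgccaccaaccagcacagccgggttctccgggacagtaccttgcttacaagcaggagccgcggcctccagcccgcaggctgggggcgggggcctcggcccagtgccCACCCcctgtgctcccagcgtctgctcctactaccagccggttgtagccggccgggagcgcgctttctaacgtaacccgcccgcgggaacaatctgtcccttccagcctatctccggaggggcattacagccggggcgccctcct
Add2, chr6:86028431-86028730, plus strand: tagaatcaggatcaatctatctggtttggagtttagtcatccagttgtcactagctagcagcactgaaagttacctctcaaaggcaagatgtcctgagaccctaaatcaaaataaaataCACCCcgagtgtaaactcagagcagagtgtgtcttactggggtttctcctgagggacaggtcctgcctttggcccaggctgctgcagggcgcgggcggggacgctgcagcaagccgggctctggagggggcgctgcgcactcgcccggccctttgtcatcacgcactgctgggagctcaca
Epb42, chr2:121036828-121037127, minus strand: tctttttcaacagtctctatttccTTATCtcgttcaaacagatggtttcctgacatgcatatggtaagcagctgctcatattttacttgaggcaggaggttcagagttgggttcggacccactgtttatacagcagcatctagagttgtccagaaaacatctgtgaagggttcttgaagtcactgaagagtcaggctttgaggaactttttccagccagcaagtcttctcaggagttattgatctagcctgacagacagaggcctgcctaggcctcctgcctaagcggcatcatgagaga
Sptb and Add2 each held 1 CACCC and no GATAA, and Epb42 held 1 GATAA, on the opposite strand, and no CACCC. Tmod1 held 3 CACCC, while the promoter of Add1 and the 3 listed promoters of Epb41 held neither. These counts are descriptions of the letters alone.

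Library totals ran from 10.7 to 45.65 M counts  over all transcript rows, and from 6.82 to 31.72 M over 1 row per gene. The lowest count of any member in any library was 76, for Sptb. Levels below are CPM, counts relative to the library total after TMM scaling, and levels of different genes are compared only per kilobase of the matched GENCODE transcript, whose ends may differ from those of the RefSeq row. Ribosomal RNA took over 5% of the counts in 7 libraries, up to 21.66% in a library of week 2 at 2 mg/kg MIR29B. They were 2 libraries of week 2, 4 of week 4 and 1 of week 0, and values without them are given where they moved most. The labels name erythrocytes as the cells, and red cell genes were abundant, with a summed level of 146000 to 323000 CPM over 35 red cell genes that are no members. Markers of neutrophils, summing to 213 to 3450 CPM over 21 genes, and of other white cells and platelets were counted too.

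Levels per length differed widely between the members. Epb41, which locks spectrin to actin and to glycophorin C, was highest with a median of 2410 CPM per kb over the 36 libraries. Slc4a1, the chloride and bicarbonate exchanger and the most abundant protein of the red cell membrane, followed with 906 CPM per kb. Tmod1, tropomodulin, which caps the slow-growing ends of the short actin filaments, had 140 CPM per kb, and Epb42, a transglutaminase relative without enzyme activity that steadies the ankyrin complex, had 93.2 CPM per kb. Well below these lay Add2 with 18 CPM per kb, Ank1 with 17.8, Add1 with 13, Dmtn with 5.3 and Sptb with 4.16. Most neighbours in this order kept their places in single libraries: Slc4a1 exceeded Tmod1, and Add1 exceeded Dmtn, in all 36 libraries, and Epb42 exceeded Add2 in 35. Epb41 exceeded Slc4a1 in 32 libraries, Ank1 exceeded Add1 in 31 and Tmod1 exceeded Epb42 in 29. Add2 exceeded Ank1 in only 21 libraries and Dmtn exceeded Sptb in 26, so those neighbours were not separated by their spread. Rows of Add2 matched to transcripts of 8182 bases held 94.6% and 95.2% as many counts as its row of 3143 bases, so its place depends on the row taken. The members differed in how far they varied: the highest library was 29 times the lowest for Sptb and 18.4 times for Add2, against 3.78 times for Add1 and 4.85 times for Dmtn.

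**Figure D1:**
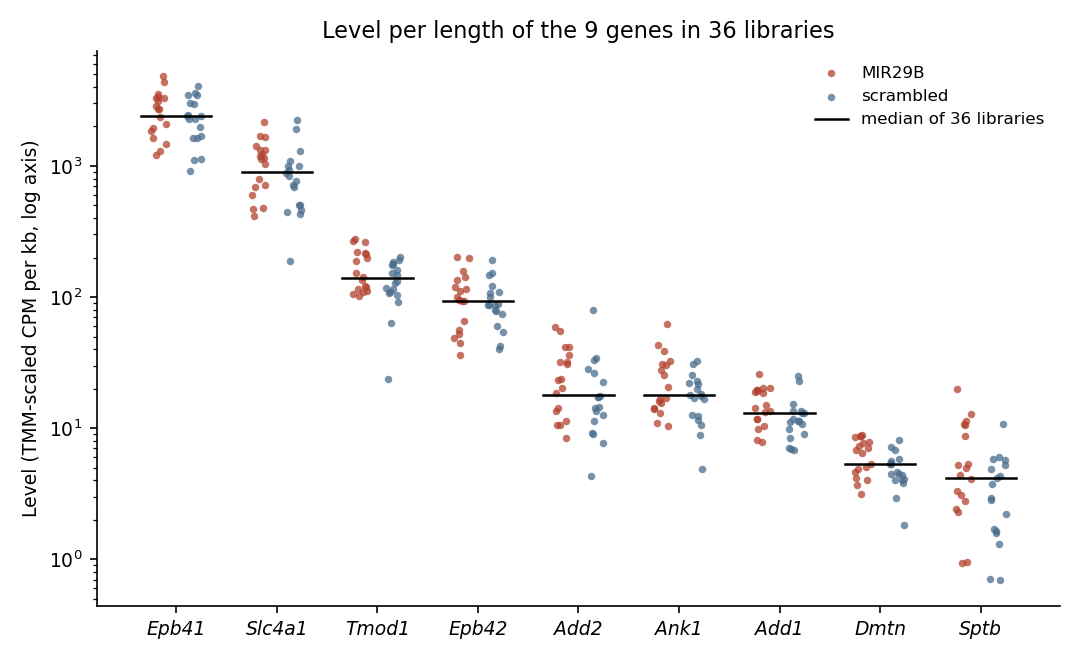
Level of each gene per length (TMM-scaled CPM per kb, log axis) in 36 libraries. Points are libraries, in red for MIR29B and blue for scrambled (18 each, all weeks), and bars are medians of 36. Epb41 (median 2410) and Slc4a1 (906) lie far above the other genes, and Sptb (4.16) lies lowest and is the most spread.

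The first question was how the members differed between the weeks within an arm. In the MIR29B arm at week 2, 3 of the 9 genes rose relative to week 0 and none fell: Ank1, the ankyrin that anchors spectrin, Sptb, beta spectrin itself, and Add2, beta adducin, which recruits spectrin to the ends of actin filaments. A gene was called at an adjusted p under 0.05 in edgeR's quasi-likelihood F test with Benjamini-Hochberg adjustment over 11953 genes. In the same comparison 5.44% of all genes tested were called, 3.45% as higher and 1.99% as lower. In bulk blood, fewer cells of a type and less RNA per cell cannot be told apart, and this holds for every level given here.

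Ank1 (chromosome 8, 22974844 to 23150497, plus strand, GRCm38) had 222, 294 and 139 CPM at 2 mg/kg and 172, 423 and 263 CPM at 3 mg/kg in the MIR29B arm at week 2. At week 0 of the same arm it had 115, 106 and 74.7 CPM at 2 mg/kg and 70.4, 95.5 and 110 CPM at 3 mg/kg. All 6 week 2 libraries lay above the highest week 0 library, at both doses. The means were 252 ± 101 CPM at week 2 and 95.2 ± 18.7 CPM at week 0 (SD, n = 6 each), the log2 fold change was 1.39 ± 0.32 (SE) and the edgeR adjusted p was 0.00884. Ank1 was the one member whose groups were apart in this comparison, and the share of all genes with groups apart was not counted. The table holds 11 rows of Ank1 that share reads. Between the means of log2 CPM at week 2 and week 0, the row used here differed by 1.33, the 2 short rows, matched to transcripts of 1030 and 1740 bases, by 1.13 each, and the other rows by 1.31 to 1.69. The row of 1030 bases held between 20.8% and 97.1% as many counts as the row used, over single libraries.

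Sptb (chromosome 12, 76580488 to 76710547, minus strand) had 118, 133 and 32.4 CPM at 2 mg/kg and 55.8, 208 and 54.2 CPM at 3 mg/kg in the MIR29B arm at week 2. At week 0 it had 51.6, 9.95 and 23.7 CPM at 2 mg/kg and 25.1, 34.7 and 43 CPM at 3 mg/kg. Of the 6 week 2 libraries, 5 lay above all of week 0, and 1 library at 2 mg/kg lay among them. The log2 fold change was 1.68 ± 0.49 with an edgeR adjusted p of 0.0365. Add2 (chromosome 6, 86028681 to 86124409, plus strand) had 131, 172 and 74 CPM at 2 mg/kg and 101, 187 and 131 CPM at 3 mg/kg at week 2, against 74.2, 35.9 and 44.8 CPM at 2 mg/kg and 26.5, 63.8 and 42.5 CPM at 3 mg/kg at week 0. Its lowest week 2 library met the highest week 0 library and the others lay above it. The log2 fold change was 1.47 ± 0.39 with an edgeR adjusted p of 0.0237.

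The other 6 members were not called. Slc4a1 stood at a median of 6970 CPM (5110 to 9750) at week 2 and 3420 CPM (2120 to 5640) at week 0, with 5 of 6 week 2 libraries above all of week 0, a log2 fold change of 0.89 ± 0.39 and an adjusted p of 0.188. Epb41, Dmtn (dematin, which bundles actin), Add1 (alpha adducin, the partner of Add2) and Tmod1 had log2 fold changes of 0.54, 0.63, 0.56 and 0.64, each with an SE between 0.26 and 0.33. Dmtn was the most even of them at week 2, with 26.9 to 36.6 CPM, against 13.2 to 37 CPM at week 0. Epb42 was the exception among the 9 with a log2 fold change below 0, at -0.44 ± 0.31. The median over the 9 genes was 0.64, beside -0.05 over all genes tested, and 8 of the 9 values lay above 0.

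The calls of Sptb and Add2 depended on single libraries, and that of Ank1 on some of the settings below. Ank1 was called without any 1 of the 12 libraries of the arm at these weeks, with log2 fold changes of 1.2 to 1.52 and an adjusted p of at most 0.0379. The count of called members was 1 in place of 3 without any 1 of 7 libraries, which were replicates 2 and 3 at 2 mg/kg and 1 and 3 at 3 mg/kg of week 0, and replicates 1 and 2 at 2 mg/kg and 2 at 3 mg/kg of week 2. Without the 7 libraries over 5% ribosomal RNA, 2 of which were week 2 libraries at 2 mg/kg MIR29B, none was called, the log2 fold changes were 1.39 for Ank1, 1.82 for Sptb and 1.48 for Add2, and the adjusted p were 0.104, 0.117 and 0.154. Sptb was also not called without replicate 2 at 3 mg/kg of week 0, with a log2 fold change of 1.69 and an adjusted p of 0.066. With the row of lowest total in place of the highest for each gene, an alternative chosen after seeing the data, Ank1 had a log2 fold change of 1.04 with an adjusted p of 0.223, and Add2 one of 1.13 with 0.0713.

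Neutrophil markers moved with week in both arms. Of 21 markers, 12 were called higher at week 2 than at week 0 in the MIR29B arm and 10 in the scrambled arm, and their summed level was 867 to 1890 CPM at week 2 and 213 to 670 CPM at week 0 in the MIR29B arm. In the scrambled arm it was 1010 to 3450 CPM at week 2 and 229 to 1410 CPM at week 0. Red cell genes that are no members had a summed level of 238000 to 295000 CPM at week 2 and 164000 to 295000 CPM at week 0 in the MIR29B arm, with 3 of 35 called higher, none lower and a median log2 fold change of 0.32. In the scrambled arm their summed level was 146000 to 273000 CPM at week 2 and 162000 to 279000 CPM at week 0. There 2 of 35 were called higher and 2 lower, with a median log2 fold change of 0.08. Of the other marker lists in the MIR29B arm, 2 of 13 monocyte genes were called higher, and 2 of 14 B cell, 1 of 12 NK cell, 1 of 14 platelet and none of 14 T cell genes lower. The part of the cell mixture in the members' values was not tested. With library sizes taken from the red cell genes, Ank1 still had a log2 fold change of 1.22 and was called, and Sptb with 1.5 and Add2 with 1.25 were not, with adjusted p of 0.074 and 0.0845.

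**Figure D2:**
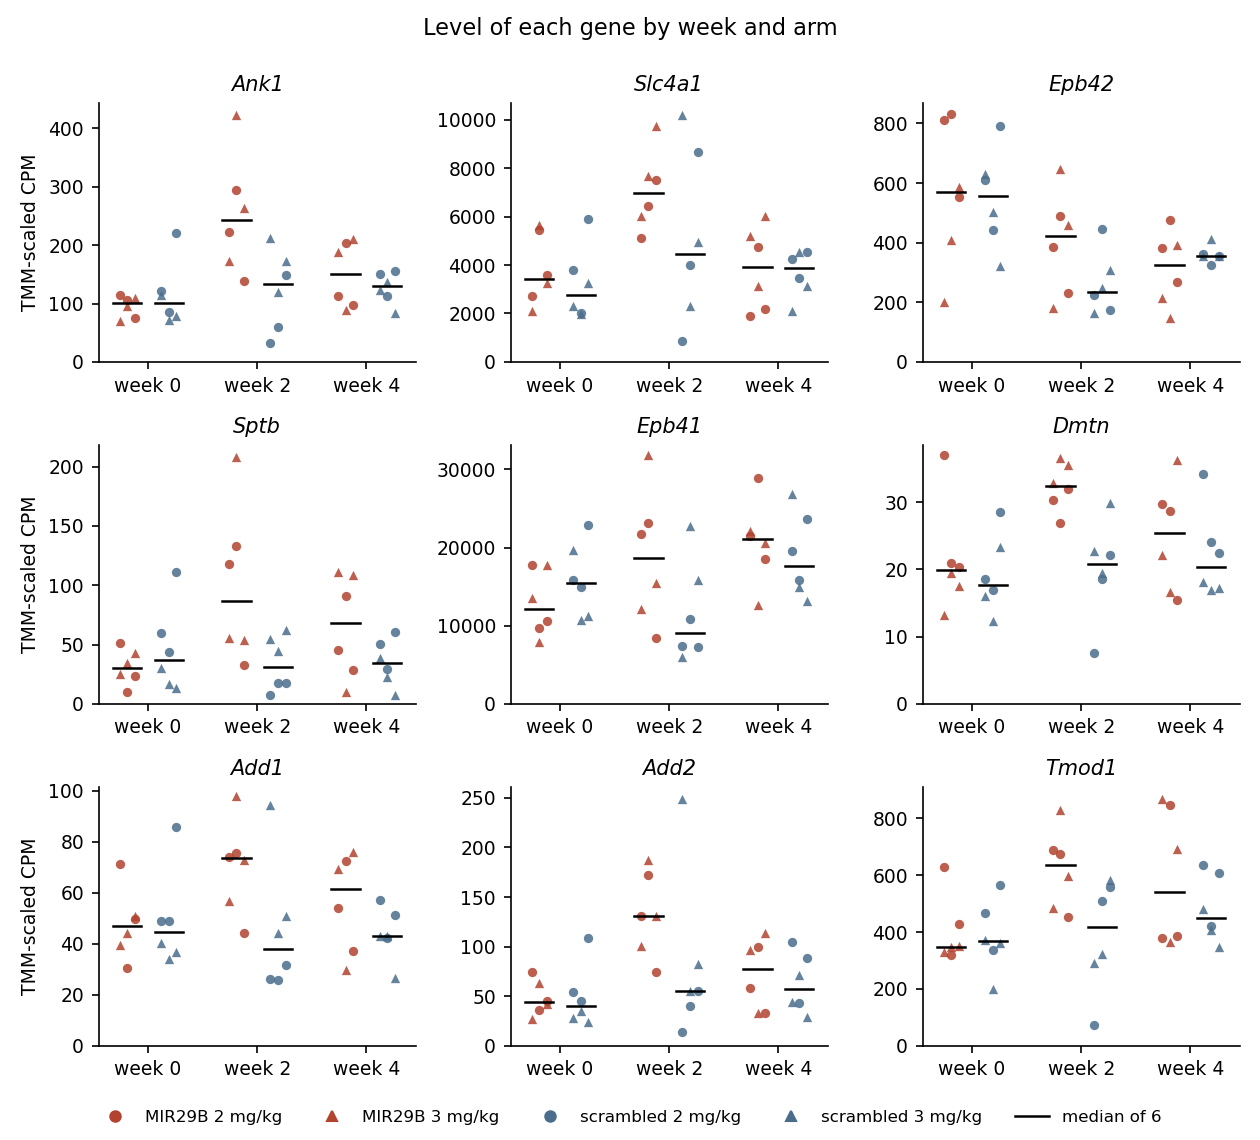
Level of each of the 9 genes (TMM-scaled CPM, linear axes from 0) at weeks 0, 2 and 4, MIR29B in red left of scrambled in blue. Circles are 2 mg/kg libraries, triangles 3 mg/kg libraries, and bars are medians of 6. The week 2 MIR29B libraries of Ank1 (139 to 423) lie above all week 0 MIR29B libraries (70.4 to 115), and Epb42 is lower at weeks 2 and 4 than at week 0 by its medians in both arms.

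In the scrambled arm at week 2, none of the 9 members was called relative to week 0 by edgeR, 1 had an unadjusted p under 0.05, as had 20.3% of all genes, and DESeq2 called 1 member and 1019 genes in all. Over all genes 3.21% were called by edgeR, 2.11% as higher and 1.1% as lower. The median log2 fold change of the members was 0.03, beside -0.01 over all genes, with 5 values above 0 and 4 below. Ank1 had a median of 134 CPM (33 to 212) at week 2 and 101 CPM (72.3 to 221) at week 0, and Sptb 31.2 CPM (7.17 to 62.5) at week 2 and 36.9 CPM (13.6 to 111) at week 0. The week 2 scrambled libraries were widely spread: Slc4a1 ran from 859 to 10200 CPM and Add2 from 13.5 to 249 CPM.

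Epb42 was the member nearest to a call in that arm. It had 223, 447 and 175 CPM at 2 mg/kg and 164, 249 and 308 CPM at 3 mg/kg at week 2, against 609, 442 and 792 CPM at 2 mg/kg and 630, 503 and 323 CPM at 3 mg/kg at week 0. Of the week 2 libraries, 5 of 6 lay below all of week 0. The log2 fold change was -1.07 ± 0.31 with an edgeR adjusted p of 0.0509, just outside the threshold. DESeq2 gave -1.06 with an adjusted p of 0.0132, and edgeR with the replicate number as a block gave -1.11 with 0.0428. Epb42 was called lower, with adjusted p of 0.04, 0.0153 and 0.0348, without replicate 3 of week 0 at 3 mg/kg, replicate 2 of week 2 at 2 mg/kg or replicate 3 of week 2 at 3 mg/kg. Over all alternative settings and left-out libraries the adjusted p ran from 0.0132 to 0.243. In the MIR29B arm Epb42 had 385, 491 and 231 CPM at 2 mg/kg and 182, 646 and 459 CPM at 3 mg/kg at week 2, against 811, 833 and 552 CPM at 2 mg/kg and 200, 409 and 587 CPM at 3 mg/kg at week 0. Those groups overlapped widely.

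At week 4 none of the members was called relative to week 0 in either arm, by edgeR or by DESeq2. In the MIR29B arm 4 members had an unadjusted p under 0.05, as had 17.1% of all genes, and 3.09% of all genes were called, 2.64% as higher and 0.443% as lower. The medians of Ank1 at weeks 0, 2 and 4 were 101, 242 and 151 CPM, those of Sptb 29.9, 87.1 and 68.1 CPM and those of Add2 43.6, 131 and 77.4 CPM. For each of these genes the week 4 libraries were split, with 3 of 6 above all week 0 libraries and the others among or below them. Epb41 differed in its course, with medians of 12100, 18700 and 21000 CPM and 5 of 6 week 4 libraries above all of week 0, a log2 fold change of 0.67 ± 0.32 and an adjusted p of 0.278. Epb42 had medians of 570, 422 and 326 CPM and a log2 fold change at week 4 of -0.81 ± 0.31 with an adjusted p of 0.149. The members' median log2 fold change was 0.57, beside -0.01 over all genes.

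In the scrambled arm at week 4 no member had an unadjusted p under 0.05. Over all genes 0.46% were called, 0.36% as higher and 0.1% as lower, and the members' median was 0.18, beside -0.05 over all genes. Epb42 again had the lowest value, -0.6 ± 0.31, and its week 4 libraries were the closest together of any group, between 326 and 412 CPM. Week 4 against week 2 gave 0 called members and 0% of all genes in both arms by edgeR. DESeq2 called none of the members there, and 3 members in the MIR29B arm (Ank1, Slc4a1 and Add2, with log2 fold changes of -0.74, -0.91 and -0.88) and 1 in the scrambled arm (Epb41, 0.76) had an unadjusted p under 0.05, as had 11% of all genes in the MIR29B arm and 10.8% in the scrambled arm.

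The second question was whether MIR29B and scrambled libraries of the same week differed. At week 2 all 9 members had a log2 fold change above 0 (8 when scaled on red cell genes), between 0.46 and 1.87 with a median of 0.74, beside -0.09 over all genes tested. None was called by edgeR, which called 0% of all genes in this comparison. Of the members 6 had an unadjusted p under 0.05, as had 9.83% of all genes, and DESeq2 called 1 member, Sptb, and 78 genes in all. Sptb had the widest gap, with a median of 87.1 CPM (32.4 to 208) in MIR29B libraries and 31.2 CPM (7.17 to 62.5) in scrambled libraries, a log2 fold change of 1.87 ± 0.49 and an edgeR adjusted p of 0.156. Ank1 had a median of 242 CPM (139 to 423) in MIR29B libraries and 134 CPM (33 to 212) in scrambled libraries, with 1.1 ± 0.32 and 0.21. Dmtn had 5 of 6 MIR29B libraries above every scrambled library, at 26.9 to 36.6 CPM against 7.63 to 29.9 CPM. For none of the 9 genes were the 2 sets of libraries apart, and over all genes this was not counted. Without the libraries over 5% ribosomal RNA all 9 values again lay above 0 with a median of 0.85, and Sptb had 2.02 with an adjusted p of 0.901. Beside the members, 29 of 35 other red cell genes lay above 0 with a median of 0.37, and 20 of 21 neutrophil markers lay below 0 with a median of -0.64, none of them called, and the part of this in the members' values was not tested. With library sizes taken from the red cell genes, 8 of the 9 values lay above 0, Slc4a1 had -0.03, and the median was 0.28, beside -0.6 over all genes.

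At week 0 the arms gave 0 called members and 0% of all genes, and no member had an unadjusted p under 0.05. The members' median log2 fold change there was 0, beside -0.05 over all genes, with values between -0.29 for Epb41 and 0.28 for Slc4a1. All 21 neutrophil markers already lay below 0 between the arms at week 0, with a median of -1.04. Of the 35 other red cell genes, 27 lay above 0 there, with a median of 0.18, and none of either list was called. At week 4 the arms again gave 0 called members and 0% of all genes, and 1 member, Sptb, had an unadjusted p under 0.05, as had 2.64% of all genes. The members' median was 0.22, beside 0.03 over all genes, and Sptb had 0.98 ± 0.48. Without the libraries over 5% ribosomal RNA the median was 0.14, Sptb had 1.22, and Slc4a1 had -0.4 in place of 0.03. DESeq2 called none of the members at week 0 or week 4.

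**Figure D3:**
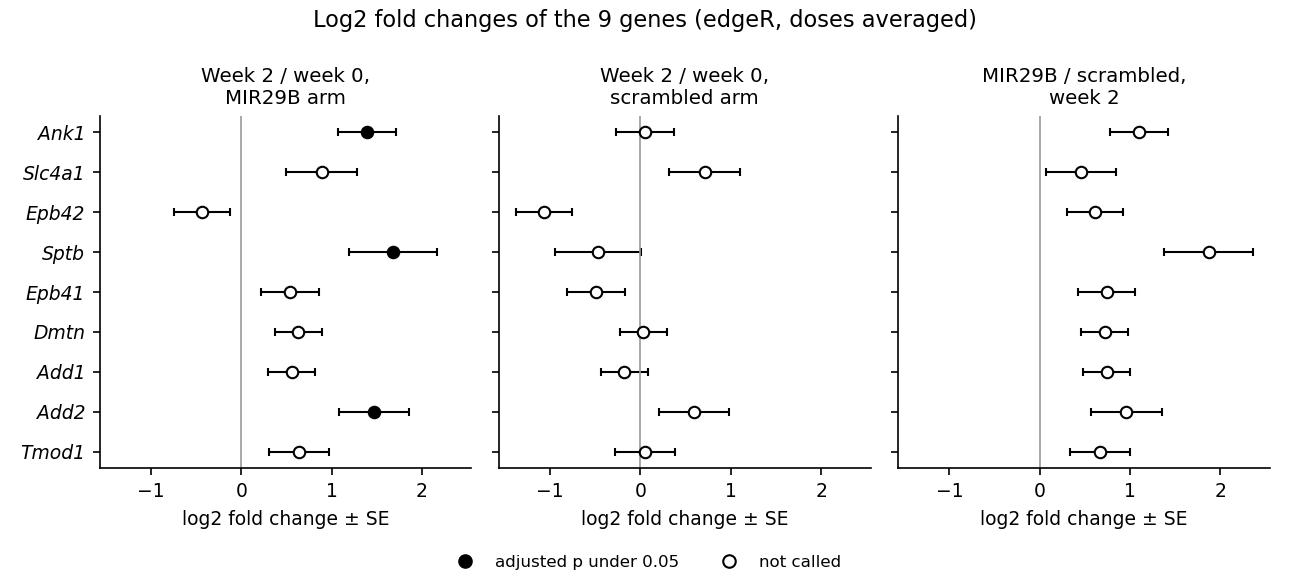
Log2 fold changes of the 9 genes with their SE (horizontal bars) in 3 comparisons of the edgeR model, doses averaged. Filled points have an adjusted p under 0.05. The filled points are Ank1 (1.39), Sptb (1.68) and Add2 (1.47) at week 2 against week 0 in the MIR29B arm, and all 9 points lie above 0 in MIR29B against scrambled at week 2 (8 of 9 when scaled on red cell genes), without a call.

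The change from week 0 was then set against itself between the arms. For week 2 all 9 members had a difference above 0 (8 when scaled on red cell genes, and 8 without the libraries over 5% ribosomal RNA, where Slc4a1 had -0.03), with a median of 0.74, beside -0.01 over all genes, and none was called, with 0% of all genes called. The largest were 2.15 ± 0.68 for Sptb, 1.34 ± 0.45 for Ank1 and 1.03 ± 0.46 for Epb41, the 3 members with an unadjusted p under 0.05, as had 5.61% of all genes, and the adjusted p of Sptb was 0.838. DESeq2 called no member. The rise of Ank1, Sptb and Add2 in the MIR29B arm was therefore not shown to differ from the change in the scrambled arm. For week 4 the median difference was 0.23, beside 0.12 over all genes, with 0 called members, 0% of all genes called, no member at an unadjusted p under 0.05 and none called by DESeq2.

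The doses were compared as the difference of MIR29B minus scrambled at 3 mg/kg from that at 2 mg/kg. At week 2 the median over the members was -0.65, beside -0.09 over all genes, with 0 called by edgeR and by DESeq2, 0% of all genes called by edgeR and 1 member, Add2, at an unadjusted p under 0.05, as had 5.76% of all genes. The lowest values were -1.79 ± 0.96 for Sptb and -1.68 ± 0.78 for Add2. At 2 mg/kg Sptb had 118, 133 and 32.4 CPM in MIR29B libraries, against 7.17, 17.6 and 17.2 CPM in scrambled libraries, and the groups did not overlap. At 3 mg/kg it had 55.8, 208 and 54.2 CPM in MIR29B libraries, against 54.7, 44.8 and 62.5 CPM in scrambled libraries, and they did. The scrambled libraries of Sptb at week 2 were thus lower at 2 mg/kg than at 3 mg/kg, while the MIR29B libraries of the 2 doses overlapped. At week 0 the scrambled order was the reverse, with 43.5 to 111 CPM at 2 mg/kg and 13.6 to 30.2 CPM at 3 mg/kg. At 2 mg/kg of week 2 the MIR29B and scrambled groups of Add1, Add2 and Dmtn did not overlap either. Those of Ank1, Slc4a1, Epb41, Epb42 and Tmod1 did. At 3 mg/kg only those of Dmtn were apart, with 32.9 to 36.6 CPM in MIR29B and 19.5 to 29.9 CPM in scrambled libraries. These are groups of 3, and the share of all genes with groups apart was not counted. At week 4 the members' median was 0.65, beside -0.04 over all genes, with 0 called by edgeR and by DESeq2, 0% of all genes called by edgeR and no member at an unadjusted p under 0.05. Without the libraries over 5% ribosomal RNA the difference at week 4 was 2.21 for Sptb in place of 1.49 and 1.31 for Tmod1 in place of 0.69, and at week 2 it was -2.13 for Sptb.

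Other genes of the red cell membrane were read beside the members from a list of 23. In the MIR29B arm at week 2, 2 were called higher than at week 0, Slc2a1, the glucose transporter, with 1.57 ± 0.28, and Flot1, a lipid raft protein, with 1.09 ± 0.27. In the scrambled arm both were called higher at week 2 too, Slc2a1 with 1.42 ± 0.28 and Flot1 with 0.98 ± 0.26. At week 4 Slc2a1 with 2.12 ± 0.28 and Aqp1, the water channel, with 1.02 ± 0.3 were called higher in the MIR29B arm, and Slc2a1 with 1.76 ± 0.28 in the scrambled arm. The list's median at week 2 against week 0 was 0.41 in the MIR29B arm and 0.16 in the scrambled arm. Of 18 relatives of the members known from other cells, such as Sptbn1 and Ank3, 17 were found among the genes and 12 had enough counts for the test. None was called at week 2 in either arm, and Tgm1 with 3.79 ± 1.08 and Tgm2 with 2.72 ± 0.49, transglutaminases related to Epb42, were called higher at week 4 in the MIR29B arm. In MIR29B against scrambled, Tgm1 had -3.51 ± 1.09 at week 0 and -0.3 ± 0.74 at week 4. Tgm2 had -0.87 ± 0.48 and 0.03 ± 0.45 there, and neither gene was called between the arms.

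The members varied together across libraries to different degrees. Over the 36 pairs of members the Pearson correlation of log2(CPM + 0.5) across the 36 libraries ran from -0.06 to 0.91 with a median of 0.64. The libraries share group, depth and cell mixture, so this is a description. After the group means were taken out it ran from -0.22 to 0.86 with a median of 0.59. Sptb with Add1 (0.91), Ank1 with Add2 (0.9) and Add1 with Add2 (0.88) were the closest pairs, and Ank1 correlated best with the mean of the members (0.93). Epb42 stood apart, with 0 to 0.38 against each of the others and 0.36 against the mean, although its protein sits in the ankyrin complex beside Slc4a1 and Ank1.

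The most abundant members, Slc4a1 and Epb41, had a correlation of -0.06. A further measure of the libraries moved with both, and what it reflects was not tested. The transcript length index of a library was a slope on log2 transcript length over 6200 genes. The values fitted were log2 levels minus the gene's mean over the 36 libraries, so the index is relative to the other libraries. The index correlated at 0.66 with Epb41 and at -0.64 with Slc4a1, and at 0.78 and -0.66 within groups. Its mean was -0.11 ± 0.26 in MIR29B libraries of week 2 and -0.03 ± 0.28 in those of week 0 (SD, n = 6 each). For Ank1 and Add2 the correlation with the index was -0.1 and -0.23, and for Sptb it was 0.27, and 0.43 within groups. With the index as a term, the log2 fold changes at week 2 against week 0 in the MIR29B arm were 1.39 for Ank1, 1.7 for Sptb and 1.46 for Add2, and all 3 were called. The same term moved the difference between arms in the week 2 change to 1.58 for Sptb, against 2.15 without it, to 0.86 for Slc4a1, against 0.18, and to 0.67 for Epb41, against 1.03, with no member called.

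**Figure D4:**
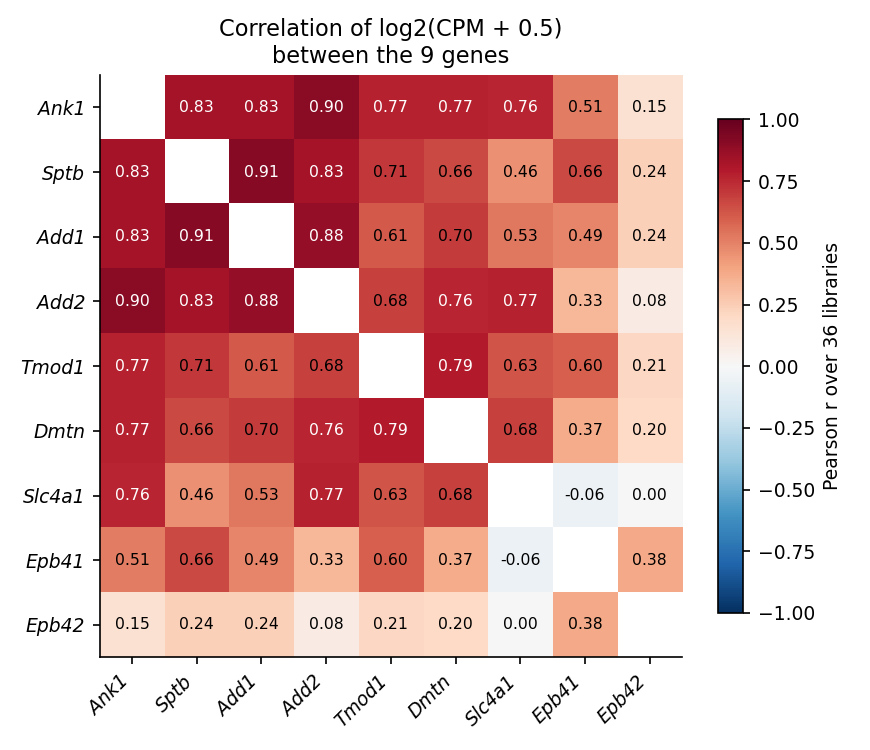
Pearson correlation of log2(CPM + 0.5) between the 9 genes over 36 libraries, genes ordered by their correlation with the mean of the 9. The block of Ank1, Sptb, Add1 and Add2 lies between 0.83 and 0.91, and Epb42 has no value above 0.38.

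The 5 genes outside the members whose levels over the 36 libraries were most like the mean of the members were Rnf123, a ubiquitin ligase (0.91), Eif2ak1, the heme-regulated kinase that slows translation in erythroid cells (0.91), Tpcn1, an endolysosomal channel (0.9), Crat, carnitine acetyltransferase (0.89), and Mtmr3, a lipid phosphatase (0.89). Their transcripts were matched to lengths of 3833 to 5674 bases.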

How the data were processed

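RNA of peripheral blood was sequenced in 36 libraries, and the deposited table holds raw counts per RefSeq transcript (25856 rows), not normalised; per the submitters' processing notes, HISAT2 2.0.5, featureCounts 1.5.0-p3 and GRCm38 were used, with no roles given. All deposited counts were even (0 odd values), and how mates, strand and reads shared by isoforms were handled is not given in the sources used here, so isoform rows share reads. Rows were matched to symbols with a RefSeq table (25650) or GENCODE (132), and 74 rows without a symbol, with 1.64% to 14.5% of the gene-level counts, kept entries of their own. The row with the highest total stood for each gene (16812 genes). Genes were kept with filterByExpr (minimum count 10, minimum total 15; 11953 genes), scaled with TMM and fitted over 12 groups of 3 libraries with edgeR 4.0.16 in R 4.3.3. The quasi-likelihood F test was two-sided, with 13 comparisons, 11 averaged over doses and 2 between doses, and adjustment within each, and SEs were derived from the fold change and F. The common dispersion was 0.25. Code was tested on simulated data. DESeq2 1.42.0, other scalings, no filter, summed or lowest rows, halved counts, a length term, a replicate block and left-out libraries were alternatives. All 9 members are named, with values per library for those called; of other lists at most 3 called genes per comparison are named. The members and lists were chosen with earlier results of these data known. No replicate of a group was a copy of another (highest correlation 0.976). One gene of the list of other membrane genes is not reported here.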

Additional observations from a re-analysis of the deposited data

Results flagged for a closer look

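Dixon's test at the 95% level was applied to CPM, without logarithms, in 54 sets of 6 libraries. The sets covered 9 genes, 3 weeks and 2 arms, with both doses together. That level means about 1 of 20 sets by chance if the sets are independent and their values normally distributed. The sets share libraries and their genes vary together, so the number of flagged sets cannot be judged against that rate. In 7 sets 1 library lay far from the other 5. In each the library was the highest. They came from 3 libraries. Replicate 3 of week 0 at 2 mg/kg scrambled had 221 CPM of Ank1, with 122 CPM in the next library, 85.6 CPM of Add1, with 49 CPM next, and 109 CPM of Add2, with 54.1 CPM next. Replicate 1 of week 2 at 3 mg/kg scrambled had 94.2 CPM of Add1, with 51 CPM next, and 249 CPM of Add2, with 82.7 CPM next. Replicate 1 of week 0 at 2 mg/kg MIR29B had 37 CPM of Dmtn, with 21 CPM next, and 630 CPM of Tmod1, with 429 CPM next.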

How the results depend on the processing

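Calls of the members changed with the processing as follows; where a cause is not given, it was not tested. At week 2 against week 0 in the MIR29B arm, 3 members were called, and 8 of 12 other settings gave the same count within 1.5 times. The count was 1 (Ank1) with total counts and no scaling, 1 (Ank1) with scaling on red cell genes, 1 with the lowest row per gene (chosen after seeing the data), and 0 without the libraries over 5% ribosomal RNA, which leaves 29 libraries and 1 in some groups, assumed to vary like the others. Leaving out 1 library of the compared groups gave 1 to 3. At week 2 against week 0 in the scrambled arm, 0 members were called, and 1 (Epb42) with no filter, with DESeq2, with halved counts and with the replicate block; leaving out 1 library gave 0 to 1, the call of Epb42 being made without replicate 3 of week 0 at 3 mg/kg, or 2 at 2 mg/kg or 3 at 3 mg/kg of week 2. Between MIR29B and scrambled at week 2, 0 members were called, and 1 (Sptb) with no filter and with DESeq2. With no filter Sptb was also the 1 call at week 4 against week 0 in the MIR29B arm and in the difference between arms in the week 2 change, both 0 otherwise. For the other comparisons the count of called members was 0 under every setting tried. No called member changed direction under any setting.

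The labels give no pairing by replicate number, and the main fit holds no replicate block. Deviations of libraries with the same number had a median correlation of 0.05, with 88 of 198 pairs over 0.1. For other pairs these were -0.03 and 109 of 396, and whether the numbers mark animals was not tested. The replicate block changed the call of Epb42 alone, and with it 644 genes in place of 650 were called at week 2 against week 0 in the MIR29B arm. Scaling moved the median of all genes at week 2 between MIR29B and scrambled from -0.09 to -0.58 with total counts and -0.6 with red cell genes; relative to that median the members' median was 0.83, 0.92 and 0.88. Counts of all genes called ranged over the 12 other settings from 115 to 1466 (650 as reported) at week 2 and 151 to 782 (369) at week 4 against week 0 in the MIR29B arm, and from 0 to 1019 (384) and 2 to 160 (55) in the scrambled arm. From 0 as reported they reached 163, 93 and 3 between the arms at weeks 0, 2 and 4, 121 and 1274 at week 4 against week 2 in the MIR29B and scrambled arms, 63 and 72 for the differences between arms at weeks 2 and 4, and 20 and 5 for those between doses. With 3 libraries a group and a dispersion of 0.25, small differences were not detectable.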
